A study of Mus musculus with 30 samples.

Results

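Forebrains of mice given the antipsychotic haloperidol were compared with forebrains of untreated mice. The comparison holds 10 arrays titled as haloperidol treated and 10 titled as untreated control, so 20 of the 30 arrays in the series. All 30 were males of C57BL, an inbred strain in wide laboratory use, and each RNA sample was hybridised to its own Affymetrix MOE430A array without pooling. Haloperidol was put in the drinking water at 1.6 mg/kg/day for 12 weeks, while controls received no drug and were kept for the same 12 weeks. The remaining 10 arrays, of mice given clozapine, entered the estimate of the spread. Every mouse was caged singly under a light and dark cycle and killed by cervical dislocation, and the brain was split into hemispheres and cerebellum. The age label is 4 weeks, which the design text gives as the age of the mice used, and the age at death is not given in the sources used here. The hemisphere is right in the source label and left in the tissue label, and the haloperidol protocol names clozapine beside the dose of 1.6. The label of haloperidol replicate 5 adds that the drug was measured in plasma; the level itself is not given in the sources used here.

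Haloperidol blocks the dopamine D2 receptor, which couples to inhibitory G proteins and lowers cyclic AMP. In the striatum this receptor sits on the spiny projection neurons of the indirect pathway, which make enkephalin, whereas neurons of the direct pathway carry the D1 receptor and make substance P and dynorphin. Blocking D2 receptors releases cyclic AMP signalling in indirect pathway neurons. It is known to raise proenkephalin and neurotensin mRNA and, at first exposure, immediate early genes such as Fos, Egr1 and Nr4a1. Forebrain RNA mixes striatum with cortex, hippocampus, thalamus and glia, so that fewer cells of a type and less RNA per cell cannot be told apart.

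The arrays did not all resemble each other. Correlations between arrays, taken without the group labels, placed 8 of these 20 arrays in a cluster called A (haloperidol replicates 1, 3, 4, 5 and 6, control replicates 2, 3 and 5). Another 7 fell in a cluster called B (haloperidol replicates 8 to 10, control replicates 7 to 10), and control replicates 4 and 6 fell in a cluster C with clozapine arrays. Haloperidol 2, haloperidol 7 and control 1 joined no cluster. The correlations were taken over the tested probe sets, and the 30 arrays were split into 7 groups. RNA quality was read from Affymetrix control probe sets at both ends of Gapdh and Actb, as the 3′ signal minus the 5′ signal, where a large value marks degraded RNA. It ran from 0.47 to 2.45 with a median of 0.56 in haloperidol arrays and from 0.47 to 4.09 with a median of 0.67 in controls (two-sided permutation test, p = 0.569). Of 10 telencephalic neuron markers 6 were measured above the floor of a mean log2 value of 4 and 4 were not analysed here. All 7 pituitary hormone genes and all 6 matched blood genes lay under that floor. Of 9 cerebellar markers Pcp2, Gabra6, Cbln3 and En2 lay under it, and the other 5 (Cbln1, Zic1, Car8, Pvalb and Neurod1) were measured above it.

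Proenkephalin (Penk), the gene best known to respond to D2 blockade, was higher in the haloperidol forebrains, by 0.33 on the log2 scale (SE 0.13) or 1.26-fold. Immediate early transcription factors were mostly on the higher side, with Egr1 1.23-fold higher. Of genes with several probe sets, Ralb and Poldip3 were higher and Sppl2a, Hccs, Slc25a4, Pafah1b1 and Serinc1 lower in more than 1 probe set each. None of these differences passed the test over all genes. A gene's value was the mean of its tested probe sets, those with a mean log2 value of at least 4 over all 30 arrays. limma with Benjamini-Hochberg adjustment called 0 of 7576 genes and 0 of 12944 probe sets at an adjusted p under 0.05, and the smallest adjusted p was 0.99959 for genes and 0.99988 for probe sets. At an unadjusted p under 0.05 there were 177 genes, or 2.34%, where 379 would be expected from the threshold alone: 63 higher (0.832%) and 114 lower (1.50%). Among probe sets there were 298, or 2.30%, of which 108 were higher (0.834%) and 190 lower (1.47%). That split depended on scaling: with each array centred on its median 126 were higher and 112 lower, and after quantile normalization 176 and 140. Leaving out 1 array moved the count of 298 most for haloperidol 7 (749 without it), control 5 (666) and haloperidol 8 (417). The lowest count was 182, without haloperidol 6. No gene or probe set was called without any 1 of the 20 arrays. Many values moved once the cluster entered the fit. With the cluster as a block, 46 of the 93 named genes had a difference smaller by more than 1.5 times. Another 5 had a larger one by as much and 9 the opposite sign. The block gave each array in no cluster a term of its own, so those arrays did not enter the difference. Cluster C held 0 haloperidol arrays, so that difference rested directly on clusters A and B. These changes thus also hold the effect of leaving out the arrays in no cluster. Over all genes the median difference was -0.026 (0.0088 after quantile normalization), 43.9% of genes were higher, and in no gene did the groups' values separate completely (0%). The 95% confidence interval of a gene reached a median of 0.36 to either side, or 1.29-fold, and lay within 2-fold of no difference for 94.6% of genes and within 1.5-fold for 66.5%.

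Penk encodes the precursor of the enkephalins, opioid peptides of indirect pathway neurons. It had 1 probe set, with values from 10.24 to 11.20 and a median of 10.77 in controls. The haloperidol values ran from 10.80 to 11.34 with a median of 11.10. All 10 haloperidol arrays lay above the control mean, 4 lay above the highest control and 5 controls lay below the lowest haloperidol array, so the groups overlapped in part. The low controls were replicates 7 to 10, the 4 control arrays of cluster B, at 10.24 to 10.50; controls 1 to 6 lay between 10.68 and 11.20. The haloperidol arrays of cluster B lay at 10.80 to 10.90, above all 4 of its controls. Within cluster B Penk was 0.50 (SE 0.083) higher, and within cluster A, where the groups overlapped, 0.20 (SE 0.16) higher. The unadjusted p was 0.014, and the 95% interval of the fold ran from 1.05 to 1.51. With the cluster as a block the difference was again 0.33, with a smaller SE of 0.092 and an adjusted p of 0.999 from limma. A fit that weighted arrays by their own spread (limma's arrayWeights) gave 0.53 with an adjusted p of 0.15. Weights and cluster block together, an alternative chosen after seeing the data, gave 0.44 (SE 0.067) and an adjusted p of 0.0043 over all genes. Under that alternative limma called 4 genes in all (0.0528%). The difference stayed between 0.28 and 0.38 when single arrays were left out, and was 0.38 with RNA quality as a covariate.

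Drd2, the receptor that haloperidol blocks, ran from 5.86 to 7.39 with a median of 6.48 in haloperidol arrays and from 4.71 to 7.04 with a median of 6.22 in controls. The groups overlapped over most of that range, and the lowest value was control 1 and the highest haloperidol 2. Its difference was 0.35 (SE 0.25, 95% interval -0.16 to 0.86). Without those 2 arrays and haloperidol 7 it was 0.052, and with arrayWeights it was -0.10. Ptprm, a receptor tyrosine phosphatase of the same neurons, differed by -0.037 (SE 0.14), and it turned positive after quantile normalization (0.0069). These 3 were the tested members of 8 indirect pathway genes; Grik3 was under the floor, and Adora2a, Gpr6, Gpr52 and Sp9 were not analysed here. Signalling genes shared by the projection neurons of both pathways gave no common shift beside Penk. Of 14 tested, 7 were higher and 7 lower, with a median of 0.001, and their mean level ran from 7.80 to 8.63 in haloperidol arrays and from 7.48 to 8.59 in controls. Among them Ppp1r1b, the protein phosphatase inhibitor DARPP-32 that relays cyclic AMP signals, differed by -0.019 (SE 0.19), a sign that turned under either other scaling (0.0021 and 0.018). The transcription factor Foxp1 differed by 0.20 (SE 0.18) over 7 probe sets, and Rasgrp2, a Ras-family exchange factor, by 0.15 (SE 0.13).

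**Figure D1:**
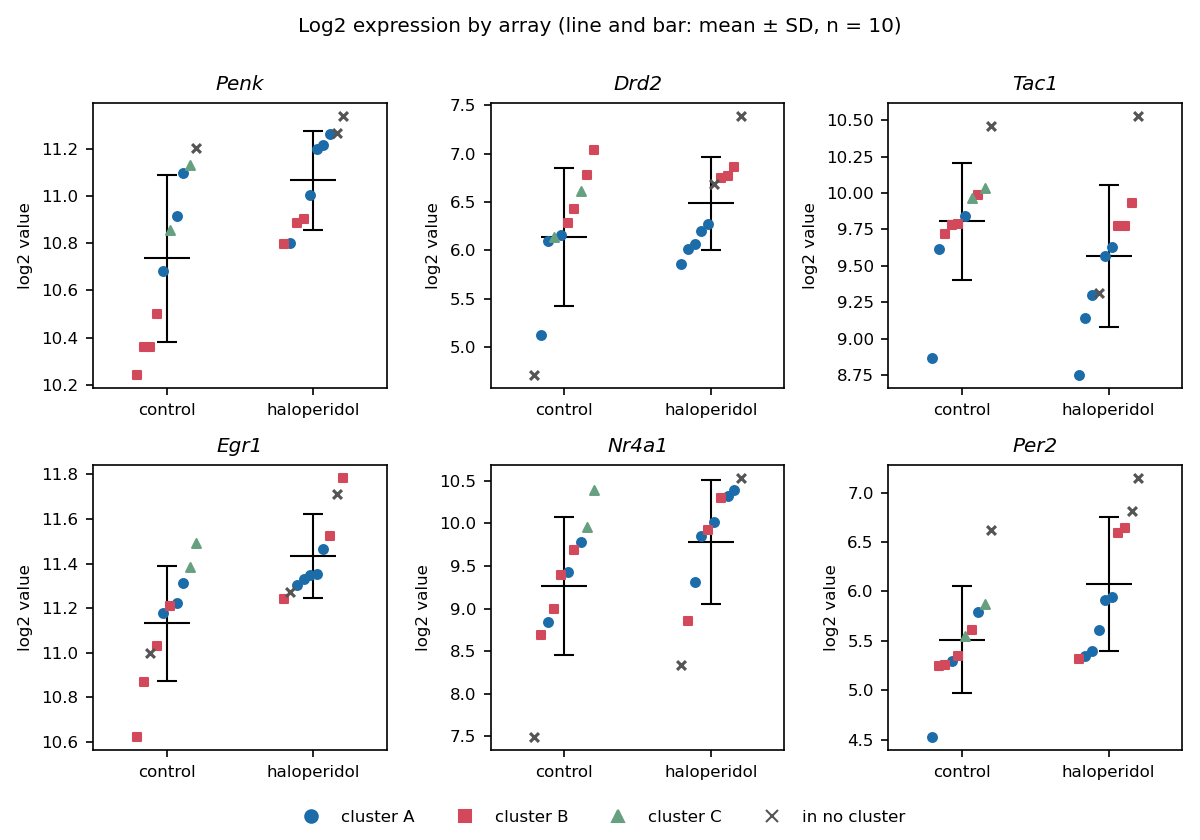
Log2 expression (vertical axis) of 6 genes in each of the 10 control and 10 haloperidol arrays; lines and bars are mean ± SD, and symbols give the array cluster. The Penk controls of cluster B lie at 10.24 to 10.50, below every haloperidol array, while in Drd2 and Tac1 the groups overlap over most of their range.

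The tested genes of direct pathway neurons were Tac1, Pdyn and Ebf1, with a median difference of -0.024, and none was at an unadjusted p under 0.05. Tac1, the precursor of substance P, ran from 8.75 to 10.53 in haloperidol arrays and from 8.87 to 10.46 in controls, with medians of 9.60 and 9.82. Its difference was -0.23 (SE 0.19, 95% interval -0.61 to 0.14), and within cluster B it was 0.0088. Pdyn, the dynorphin precursor, ran from 3.93 to 4.56 and from 3.96 to 4.78, with medians of 4.46 and 4.43 and a difference of -0.024 (SE 0.092). Its interval, -0.21 to 0.16, lay within 1.5-fold of no difference, on a low signal of the kind that GCRMA compresses. Ebf1, a transcription factor of direct pathway neurons, differed by 0.14 (SE 0.19). Drd1 and Slc35d3 were not analysed here, and Chrm4, Isl1 and Eya1 were under the floor, which left 3 of 8 genes tested.

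Among 15 tested neuropeptide genes 5 were higher and 10 lower, with a median of -0.054 that was 0.056 within cluster B. Besides Penk, only Sst in this list reached an unadjusted p under 0.05. Sst, the precursor of somatostatin in a class of cortical and striatal interneurons, ran from 8.65 to 10.25 with a median of 9.47 in haloperidol arrays. Controls ran from 9.43 to 10.09 with a median of 9.65. Haloperidol values thus spread more widely on both sides, with 9 of 10 below the control mean. The difference was -0.31 (SE 0.14, p = 0.039), and it lay between -0.41 without haloperidol 2 and -0.23 without haloperidol 7. Nts, the neurotensin precursor, ran from 4.22 to 6.77 in haloperidol arrays and from 5.02 to 6.82 in controls. Its difference of -0.32 (SE 0.32) was within the spread between arrays, and it was 0.041 with the cluster block. Adcyap1, which encodes the peptide PACAP, differed by -0.28 (SE 0.16), and Vip, Trh and Avp by -0.32, 0.41 and 0.21 with unadjusted p from 0.27 to 0.54.

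Immediate early transcription factors are switched on within minutes of synaptic activity, in part through cyclic AMP and the factor CREB, which binds the element TGACGTCA or its core TGACG. Of 19 such genes 11 were tested, and 9 were higher, against 43.9% of all genes. Their median difference was 0.23, against -0.026 for all genes, but its size depended on the setting. It was 0.077 with RNA quality as a covariate, 0.081 with arrayWeights, 0.11 without control 1, 0.15 with the cluster block and 0.18 without the 3 arrays in no cluster. Egr1 and Jund were at an unadjusted p under 0.05, which 0.832% of all genes reached on the higher side. Egr1, a zinc finger factor, ran from 11.24 to 11.78 with a median of 11.35 in haloperidol arrays and from 10.62 to 11.49 with a median of 11.20 in controls. All 10 haloperidol arrays were above the control mean, 7 controls were below the lowest haloperidol array and 3 haloperidol arrays were above the highest control. Its difference was 0.30 (SE 0.10, p = 0.0057), with 0.58 (SE 0.16) within cluster B and 0.12 (SE 0.12) within cluster A. Controls 7 to 10 lay at 10.62 to 11.21 and controls 1 to 6 at 11.00 to 11.49. Jund, a partner of Fos in the AP-1 complex, ran from 9.86 to 10.85 in haloperidol arrays and from 9.56 to 10.15 in controls, a difference of 0.23 (SE 0.10). Nr4a1, an orphan nuclear receptor, spread widely, from 8.34 to 10.54 and from 7.49 to 10.39. Its difference was 0.52 (SE 0.28, 95% interval -0.05 to 1.09), and 0.32 without control 1. Fos ran from 8.95 to 10.66 and from 9.59 to 10.74, a difference of 0.10 (SE 0.19), and Junb one of 0.53 (SE 0.69), with SDs of 1.86 and 1.58 between arrays and 0.15 with the cluster block. Egr2 differed by 0.35, Ier2 by 0.31, Jun by 0.10 and Nr4a2 by 0.060, while Crem, at -0.14, and Klf10, at -0.027, were on the lower side. Fosb, Fosl1, Fosl2, Egr3, Egr4, Nr4a3 and Atf3 were under the floor.

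Promoter windows are shown for Nr4a1 and Egr2, which were on the higher side, and for Sst, on the lower side, because they carry the CREB core or the full element. Sequences are from RefSeq (GRCm38.p6), 250 bases before to 50 after the gene's start, on the gene's strand, with TGACG or its reverse complement CGTCA in capitals. The Nr4a1 window is chr15:101266596-101266895 on the plus strand. The Egr2 window is chr10:67537620-67537919 on the plus strand, 1 of 5 annotated starts; of the windows at the other 4, 2 hold the core and 2 hold none. The Sst window is chr16:23890795-23891094 on the minus strand, and its core on each strand overlaps in the full TGACGTCA.
Nr4a1: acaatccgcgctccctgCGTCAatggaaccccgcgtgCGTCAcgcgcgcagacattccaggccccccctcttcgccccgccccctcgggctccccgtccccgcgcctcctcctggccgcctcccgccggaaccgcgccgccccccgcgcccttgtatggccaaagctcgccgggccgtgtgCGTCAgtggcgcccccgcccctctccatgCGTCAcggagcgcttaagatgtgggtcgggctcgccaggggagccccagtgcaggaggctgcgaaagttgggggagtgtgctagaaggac
Egr2: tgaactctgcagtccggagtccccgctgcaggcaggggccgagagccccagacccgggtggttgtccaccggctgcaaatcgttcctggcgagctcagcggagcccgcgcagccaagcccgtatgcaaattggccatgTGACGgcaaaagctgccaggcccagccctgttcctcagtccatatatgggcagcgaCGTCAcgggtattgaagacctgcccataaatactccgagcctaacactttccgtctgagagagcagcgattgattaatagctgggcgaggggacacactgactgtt
Sst: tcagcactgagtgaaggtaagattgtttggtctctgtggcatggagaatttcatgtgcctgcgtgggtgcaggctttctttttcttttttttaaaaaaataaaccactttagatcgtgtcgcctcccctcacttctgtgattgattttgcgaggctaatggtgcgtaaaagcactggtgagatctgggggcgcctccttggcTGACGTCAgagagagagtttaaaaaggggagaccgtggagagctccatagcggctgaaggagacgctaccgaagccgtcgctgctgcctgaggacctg
The Nr4a1 window holds 4 cores, starting between -233 and -40 from the gene's start, the Egr2 window holds 2, at -112 and -56, and the full element of Sst starts at -48. Searched on both strands, TGACG was in the windows of 37.9% of 6179 tested genes that have one, and in 20.8% of all 32851 windows. It was in at least 1 window of 5 of 7 tested immediate early factors that have one, and not in the window of Jund. It was in 9 of 11 activity-induced effectors, 9 of 13 neuropeptides and 6 of 16 clock genes. The full element was in 3.79% of tested genes, in none of those 7 factors, and in 2 of the 13 neuropeptides. A match gives the letters of the window and does not show binding.

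Genes of the activity-induced effector class act at synapses or feed back on signalling. Of 14 tested, 9 were higher, with a median of 0.097 that was 0.007 with the cluster block and -0.038 within cluster A, and none reached an unadjusted p under 0.05. Arc, which controls receptor uptake at synapses, ran from 7.24 to 10.84 in haloperidol arrays and from 7.90 to 10.31 in controls, with a difference of 0.19 (SE 0.33). The phosphatase Dusp6 differed by 0.32 (SE 0.22) and by -0.022 with the cluster block. The synaptic scaffold Homer1 differed by -0.20 (SE 0.28), the growth factor Bdnf by -0.21 (SE 0.26) and Rgs2 by 0.13 (SE 0.18). Without the 3 arrays in no cluster Bdnf was at 0.050.

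Clock genes, which D2 signalling can act on in the striatum, were tested in 19 cases, of which 11 were higher, with a median of 0.051 that was -0.079 within cluster A. Per2, a clock repressor, ran from 5.31 to 7.15 with a median of 5.93 in haloperidol arrays and from 4.52 to 6.62 with a median of 5.45 in controls. The groups overlapped, with 3 haloperidol arrays above the highest control and 4 controls below the lowest haloperidol array. Its difference was 0.56 (SE 0.24, p = 0.029), and 0.44 within cluster A, 0.82 within cluster B and 0.61 (SE 0.20) with the cluster block. Per1 ran from 6.93 to 9.42 and from 5.86 to 8.34, a difference of 0.41 (SE 0.29). Dbp, a clock output factor with 2 probe sets, ran from 8.26 to 10.00 and from 7.69 to 9.34. Its difference of 0.45 (SE 0.19, p = 0.021) was -0.16 within cluster A, 0.49 within cluster B and 0.19 with the cluster block; a difference between the clusters was not tested. The activators Arntl and Clock were on the lower side, at -0.38 and -0.29, as was Rora, a nuclear receptor that drives Arntl, at -0.40 (SE 0.21). The probe sets of Rora pointed both ways, at -0.68, -0.70 and 0.17.

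**Figure D2:**
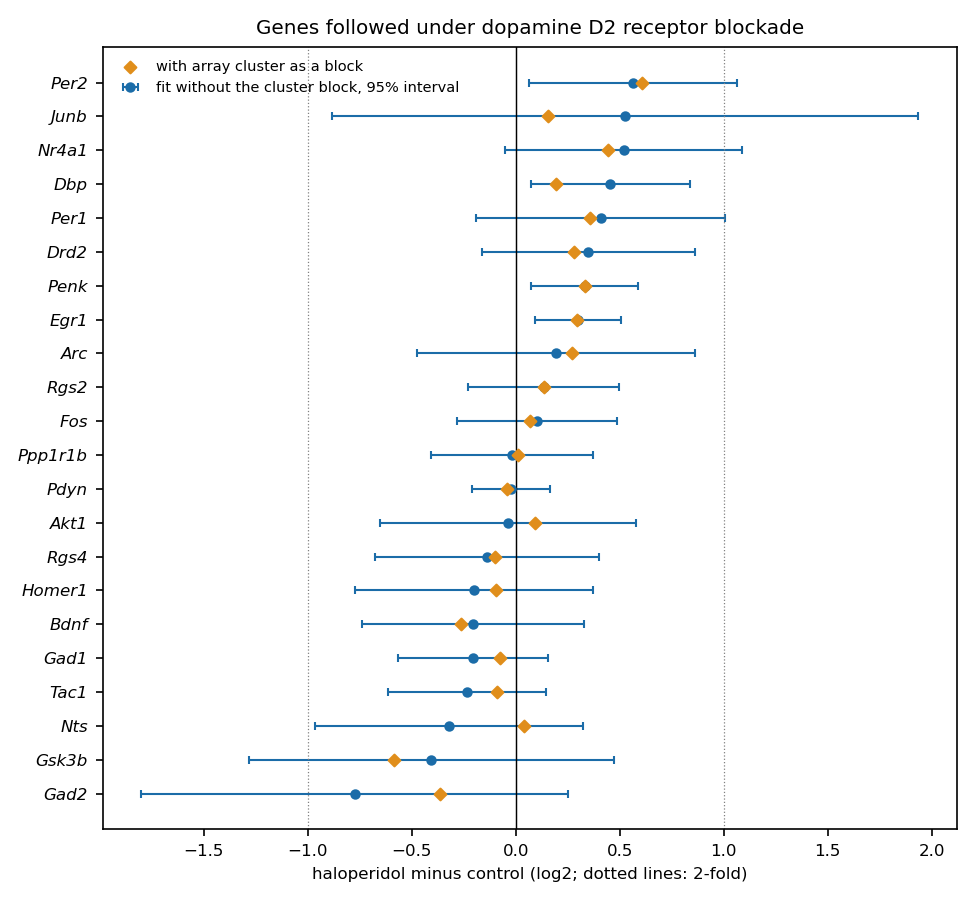
Haloperidol minus control on the log2 scale for 22 genes: circles with 95% intervals are from the fit without a cluster block, diamonds from the fit with the array cluster as a block, and dotted lines mark 2-fold. The intervals of Per2, Dbp, Penk and Egr1 lie above 0 without adjustment, and the block moves Gad2 from -0.77 to -0.36.

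Genes of the cyclic AMP and protein kinase A pathway, which D2 receptors restrain, were mostly on the lower side: 14 of 17 tested, against 56.1% of all genes, with a median of -0.12. That median depended on the setting, in both directions. It turned to 0.052 without haloperidol 7, and was -0.043 with the cluster block, -0.0062 within cluster B and -0.0036 with weights and block. It was -0.12 within cluster A and -0.13 without the 3 arrays in no cluster. With RNA quality as a covariate and with arrayWeights it was -0.20 each, and without control 1 it was -0.23. Pde4b, a phosphodiesterase that breaks down cyclic AMP, was lower in each of its 2 probe sets. It ran from 7.88 to 8.87 with a median of 8.20 in haloperidol arrays and from 8.24 to 9.22 with a median of 8.46 in controls. Of the haloperidol arrays 9 were below the control mean and 5 below the lowest control. The difference was -0.31 (SE 0.13, p = 0.021), and nearly the same within cluster A (-0.27) and cluster B (-0.25). Adcy8, a calcium-stimulated adenylyl cyclase, ran from 5.48 to 6.53 and from 5.64 to 6.88, a difference of -0.34 (SE 0.16, p = 0.048). That was -0.74 within cluster A and -0.17 within cluster B. Prkar1a, a regulatory subunit of the kinase, differed by -0.26 (SE 0.22) and Creb1 by 0.032. On the lower side 1.50% of all genes reached an unadjusted p under 0.05; here 2 of 17 did.

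D2 receptors also signal through beta-arrestin to Akt and GSK3. Of 17 genes of that route 12 were lower, with a median of -0.063. Arrb2, beta-arrestin 2, was the member at an unadjusted p under 0.05. It ran from 5.19 to 7.05 with a median of 6.11 in haloperidol arrays and from 4.89 to 7.53 with a median of 6.67 in controls, so the control range enclosed the haloperidol range. The difference averaged over its 2 probe sets was -0.55 (SE 0.25, p = 0.034), and -0.74 without control 5, the lowest control. The probe set with the higher mean, 7.82, differed by -0.18 (SE 0.19). The other, at a low mean of 4.96, differed by -0.91 (SE 0.39). Akt1 differed by -0.038 (SE 0.30), with the opposite sign after quantile normalization (0.0084), Gsk3a by 0.12 (SE 0.11) and Gsk3b by -0.41 (SE 0.43). Regulators of G-protein signalling shorten receptor signals. Of 16 tested, 6 were higher and 10 lower, with a median of -0.062 and none at an unadjusted p under 0.05. Rgs4 ran from 8.51 to 10.31 and from 7.86 to 10.34, a difference of -0.14 (SE 0.26). Rgs20 differed by -0.43 (SE 0.22), Rgs8 by -0.29 (SE 0.15) and Rgs19 by 0.23 (SE 0.21).

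Genes of inhibitory transmission had the lowest median of the pathway lists, -0.22, with 10 of 12 lower, and none was at an unadjusted p under 0.05. With the cluster block that median was -0.068. Gad2, a GABA-synthesising enzyme, ran from 4.76 to 8.98 in haloperidol arrays and from 5.91 to 9.35 in controls. Its SD between arrays, 1.46 and 1.24, exceeded its difference of -0.77 (SE 0.50). Gad1, the other such enzyme, differed by -0.21 (SE 0.18), the receptor subunit Gabra3 by -0.74 (SE 0.49) and Gabrg1 by -0.32 (SE 0.25). Telencephalic neuron markers were also mostly on the lower side, with 4 of 6 lower, a median of -0.13 (0.016 within cluster A and 0.021 within cluster B) and mean levels of 8.35 to 9.35 in haloperidol arrays against 8.54 to 9.54 in controls. Their part in the GABA values was not tested. Of 10 glutamate receptor and scaffold genes 7 were lower (median -0.091), among them Gria3 at -0.51 (SE 0.37), while Shank3 differed by 0.28 (SE 0.19) and by -0.019 without the 3 arrays in no cluster. Synaptic vesicle and release genes were lower in 16 of 20 cases (median -0.073), including Nsf at -0.32 (SE 0.24), Vamp1 at -0.34 (SE 0.29) and Sypl at -0.31 (SE 0.24). With the cluster block 9 of those 20 were higher and the median was -0.020, and it was 0.037 within cluster B and 0.0052 with weights and block. Other settings made that median larger: -0.20 with RNA quality as a covariate, -0.26 with arrayWeights and -0.17 without control 1. Cytoskeletal genes of spines and neurites had a median of -0.047 over 13, with Nefl at -0.10, Nefm at -0.17 and Mapt at 0.20 (SE 0.22). That median turned to 0.019 with the cluster block, where 7 of 13 were higher, to 0.011 within cluster B and to 0.030 without haloperidol 7.

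Antipsychotics are cationic amphiphilic compounds that can raise sterol synthesis genes through SREBP in cultured cells, and haloperidol binds sigma sites and sterol enzymes. In the forebrain 13 of 18 tested sterol genes were lower, against 56.1% of all genes. Their median was -0.052, with a range of -0.36 to 0.37. After quantile normalization 9 of these 18 were higher and the median was -0.010. Mvk, mevalonate kinase, ran from 4.55 to 5.86 and from 3.86 to 5.01, and with a difference of 0.37 (SE 0.16, p = 0.030) was the only one at an unadjusted p under 0.05. That difference was 0.16 (SE 0.14) with the cluster block. Hmgcs1, an early synthase of the pathway, differed by -0.17 (SE 0.15) over 4 probe sets. The 4 tested sigma-site genes had a median of -0.021 that turned to 0.015 after quantile normalization. Ebp, a sterol isomerase that binds sigma ligands, differed by 0.25 (SE 0.24), Dhcr7 by -0.10 (SE 0.22) and Pgrmc1 by -0.080 (SE 0.15). Haloperidol and its metabolites can inhibit mitochondrial complex I; of 33 subunit genes 16 were higher and 17 lower, with a median of -0.005 that was 0.016 under median centring. Ndufs1 differed by -0.25 (SE 0.12), Ndufb8 by 0.16 (SE 0.10) and Ndufb5 by -0.14 (SE 0.10). Of 7 tested dopamine handling genes, Drd2 included, 5 were lower (median -0.11), with Maoa at -0.25 (SE 0.18), Pts at -0.25 (SE 0.18) and Th, the dopamine-synthesising enzyme, at 0.023. Prl, the pituitary hormone that D2 blockade releases, was under the floor.

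**Figure D3:**
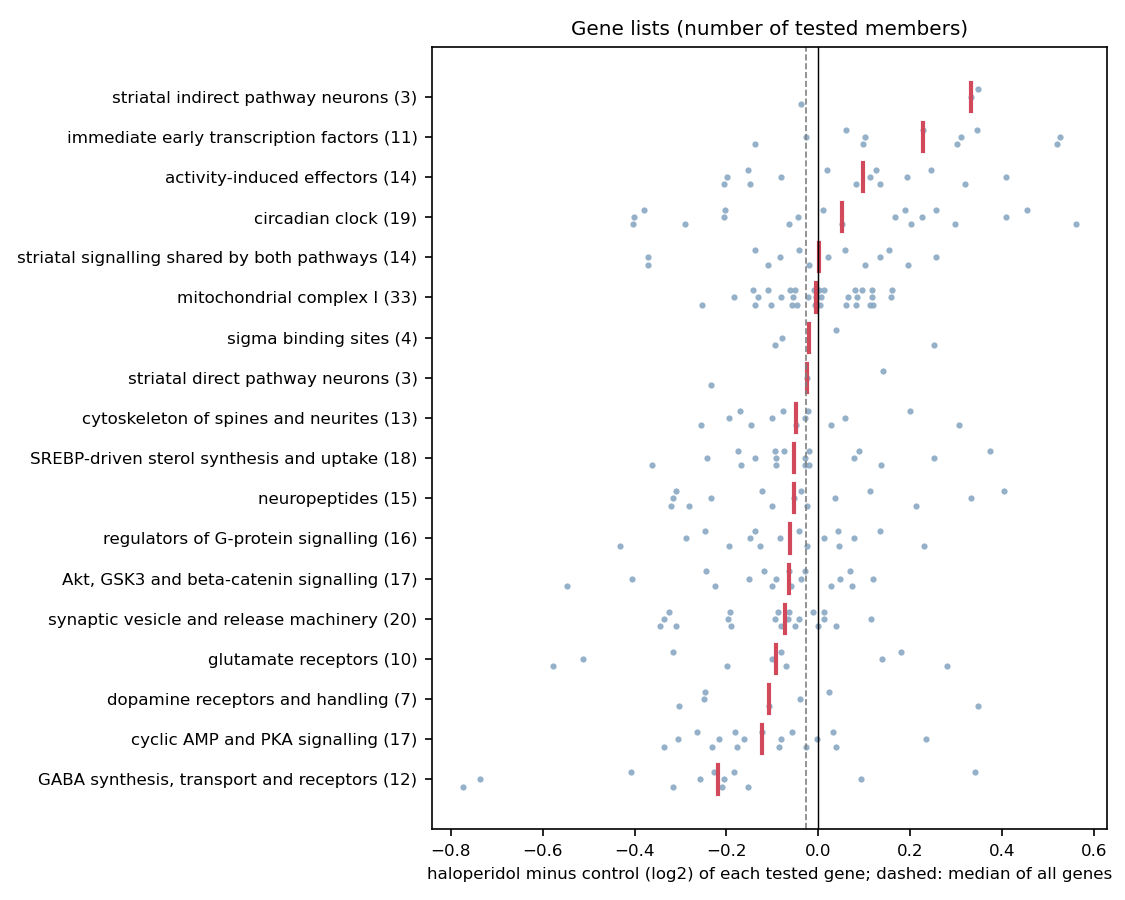
Haloperidol minus control on the log2 scale for each tested gene of 18 lists, with the number of tested members in brackets; red bars are medians and the dashed line is the median of all genes, -0.026. Immediate early transcription factors have a median of 0.23 and GABA genes one of -0.22.

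The arrays carry several probe sets for 2853 of the tested genes, and each probe set reads another stretch or isoform of the transcript. In 576 of these genes (20.2%) all probe sets were higher, in 1077 (37.7%) all were lower and in 1200 (42.1%) they pointed both ways. Between the probe sets of a gene the median gap was 0.18, close to the SE of a single gene, and 5 genes had a gap over 1. Across the 1858 genes with exactly 2 probe sets the differences correlated with r = 0.37 (rho 0.38). That is a correlation across genes, which are not independent replicates, and the probe sets share arrays. A gene was taken as backed where all its probe sets lay on the same side and at least 2 had an unadjusted p under 0.05. That held for 2 higher genes, 0.0701% of the 2853, and for 5 lower genes, 0.175%; in 0 genes did probe sets at that p oppose each other. The counts moved with single arrays. The higher count was 6 without control 2, control 3, control 5, haloperidol 8 or haloperidol 10, 5 without haloperidol 7, and 4 without control 1, haloperidol 5 or haloperidol 9. The lower count was 22 without control 5, 21 without haloperidol 7 and 10 without haloperidol 8 or haloperidol 10. It was 3 without haloperidol 1 or haloperidol 3, 2 without control 7, control 8, control 10 or haloperidol 4, 1 without control 6, control 9, haloperidol 5 or haloperidol 6, and 0 without control 1.

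Ralb, a small GTPase of the Ras family that acts in vesicle exocytosis, was higher in each of its 2 probe sets, by 0.41 (SE 0.16) and 0.43 (SE 0.17). Their means over all arrays, 4.91 and 4.28, were near the floor of 4. The probe set at 0.43 is of a kind able to bind other transcripts. Averaged over both probe sets, Ralb ran from 4.31 to 5.46 with a median of 4.81 in haloperidol arrays. Controls ran from 4.00 to 4.92 with a median of 4.31. Of the haloperidol arrays 9 lay above the control mean and 3 above the highest control. The gene's difference was 0.42 (SE 0.14, 1.34-fold, 95% interval 1.09 to 1.64), and 0.40 within cluster A and 0.22 within cluster B. Poldip3, which binds mRNA and a subunit of DNA polymerase delta, was higher in all 5 probe sets, by 0.13 to 0.50, and 3 of them had an unadjusted p under 0.05. Of the 5, 4 carry the suffix that Affymetrix gives to probe sets able to bind other transcripts, and the remaining one differed by 0.47 (SE 0.17). The gene's values ran from 7.64 to 8.70 with a median of 8.02, against 7.40 to 8.06 with a median of 7.74, so 5 haloperidol arrays lay above the highest control. Its difference was 0.32 (SE 0.12), and 0.19 (SE 0.088) with the cluster block.

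Sppl2a, a protease that cleaves proteins within the membrane of lysosomes and endosomes, differed by -0.45 in each of its 2 probe sets (SE 0.13 and 0.22). Its values ran from 5.50 to 6.51 with a median of 6.12 in haloperidol arrays and from 5.94 to 6.96 with a median of 6.55 in controls. Of the controls 6 were above the highest haloperidol array, and 9 haloperidol arrays were below the control mean. The difference was -0.45 (SE 0.14, 0.732-fold), with -0.28 within cluster A, -0.34 within cluster B and -0.30 with the cluster block. In that last fit the 2 probe sets of Sppl2a parted, at -0.45 (SE 0.12) and -0.14 (SE 0.16). Hccs, the enzyme that attaches heme to cytochrome c, ran from 5.27 to 7.58 and from 6.16 to 7.98, with medians of 6.66 and 7.53. It differed by -0.69 (SE 0.25) over 2 probe sets, but by -0.30 (SE 0.18) with the cluster block. The cluster moved with this gene: the 3 haloperidol arrays of cluster B were at the top of their group and haloperidol 2 at the bottom. Slc25a4, the ADP/ATP carrier of the inner mitochondrial membrane, ran from 12.13 to 12.58 and from 12.42 to 12.81. It had 2 of 3 probe sets at an unadjusted p under 0.05, and the gene differed by -0.15 (SE 0.079). Of those 2, the probe set at -0.20 is of a kind able to bind other transcripts. Pafah1b1, the dynein regulator LIS1, ran from 7.92 to 10.04 and from 8.72 to 10.05 and differed by -0.41 (SE 0.21) over 3 probe sets. Serinc1, a membrane protein, ran from 10.41 to 11.81 and from 11.15 to 11.86 and differed by -0.28 (SE 0.17) over 4. With the cluster block these 3 were at -0.060, -0.14 and -0.071.

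**Figure D4:**
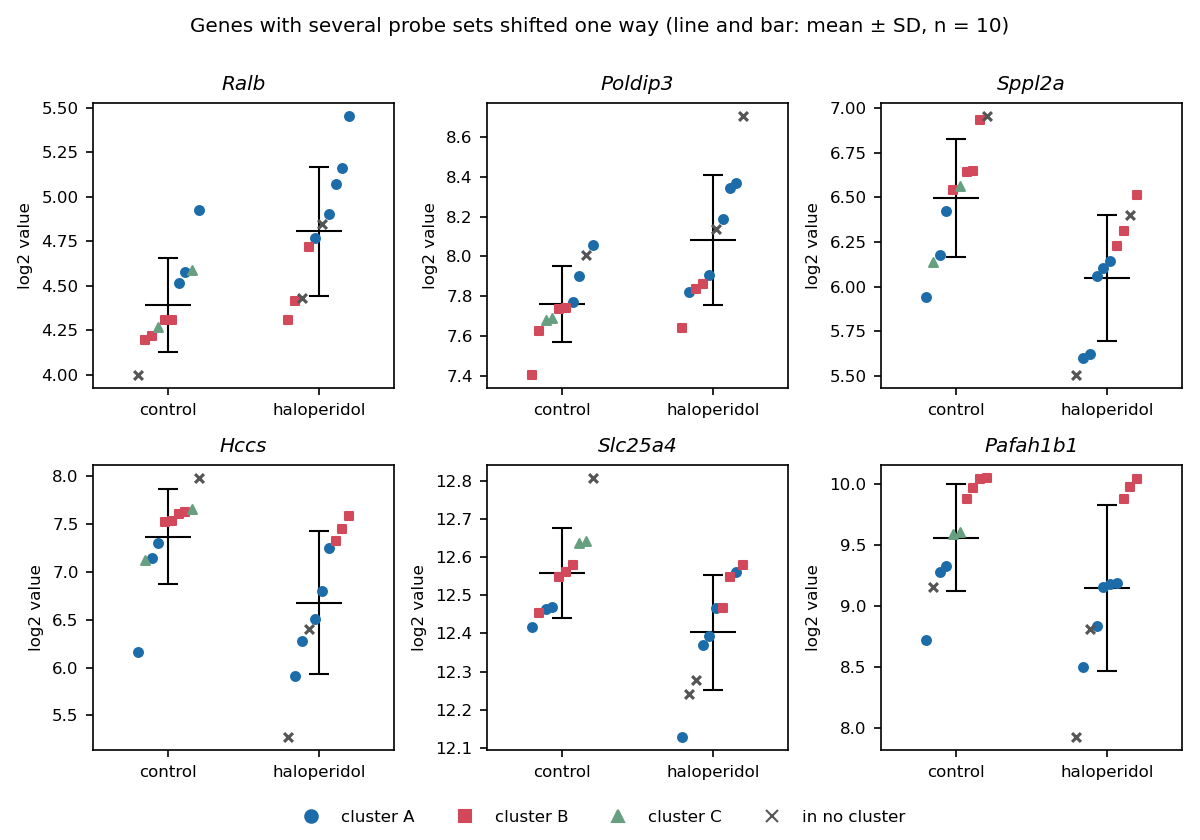
Log2 expression (vertical axis), averaged over the probe sets of a gene, in each control and haloperidol array; lines and bars are mean ± SD (n = 10) and symbols give the array cluster. The arrays of cluster B are the highest of each group in Pafah1b1, while Ralb and Sppl2a differ in the same direction within clusters A and B.

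**Figure D5:**
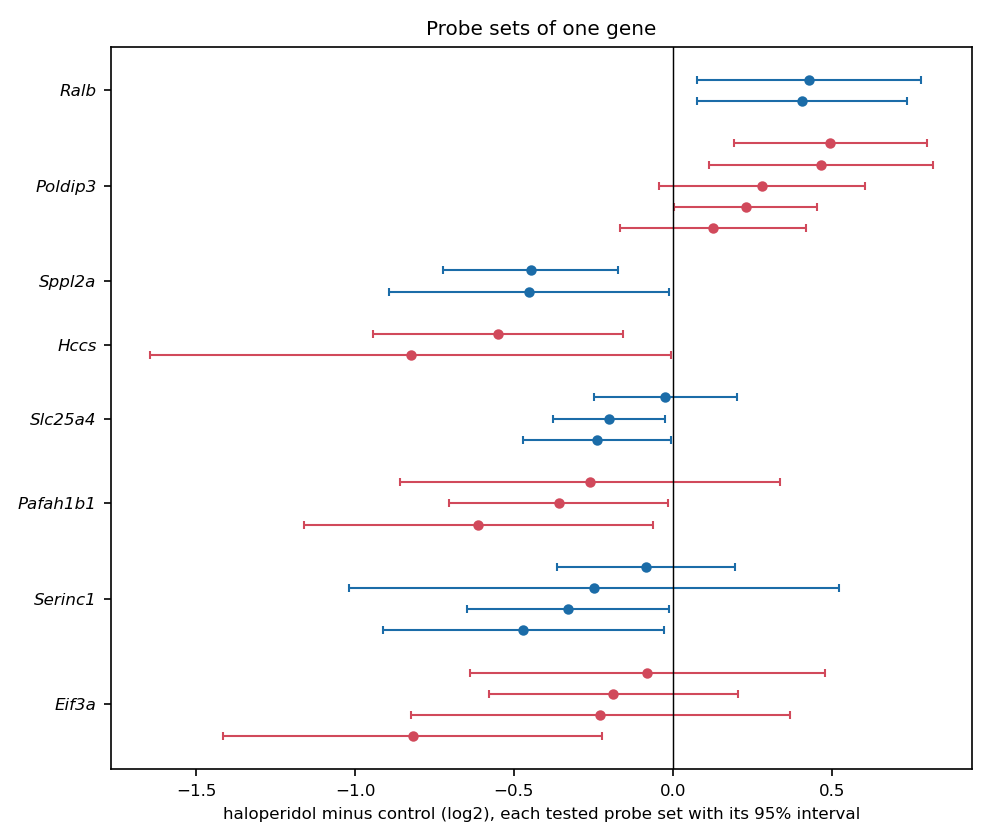
Haloperidol minus control on the log2 scale for each tested probe set of 8 genes, with its 95% interval. The 5 probe sets of Poldip3 lie between 0.13 and 0.50, whereas 1 of the 4 probe sets of Eif3a stands apart at -0.82.

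Further genes with all probe sets on the same side, taken by smallest p, did not pass the test either. On the higher side were Srf, the serum response factor that drives Egr1 and Fos, at 0.22 (SE 0.096), and Mknk2, a kinase of a translation initiation factor, at 0.33 (SE 0.14). Hspa1b, an inducible heat shock chaperone, differed by 0.50 (SE 0.23), Aph1a, a subunit of gamma-secretase, by 0.41 (SE 0.19), and Ptpa, an activator of protein phosphatase PP2A, by 0.31 (SE 0.14). Slc9a3r1, a scaffold of membrane transporters, differed by 0.39 (SE 0.17), Prr12 by 0.28 (SE 0.095), Tmem161a by 0.34 (SE 0.14) and Mepce, which caps a small nuclear RNA, by 0.46 (SE 0.18). With the cluster block these were smaller for Mepce (0.16), Slc9a3r1 (0.19), Srf (0.12), Prr12 (0.17), Tmem161a (0.21) and Aph1a (0.25), each by more than 1.5 times. Ptpa, Slc9a3r1 and Hspa1b were among the genes with a probe set of a kind able to bind other transcripts. Srf ran from 6.35 to 7.21 with a median of 6.55 in haloperidol arrays and from 6.24 to 6.59 with a median of 6.40 in controls, and 9 haloperidol arrays were above the control mean. On the lower side B2m, the light chain of MHC class I, ran from 9.22 to 10.29 with a median of 9.70 against 9.63 to 11.01 with a median of 10.34, a difference of -0.50 (SE 0.17). The groups overlapped only in part, with 5 haloperidol arrays below the lowest control and 5 controls above the highest haloperidol array. Krr1, a ribosome assembly factor, differed by -0.29 (SE 0.105), Hsd17b12, an enzyme of fatty acid elongation, by -0.31 (SE 0.12) and Strap, a partner of the SMN complex, by -0.35 (SE 0.14), or -0.21 with the cluster block. Pex3, needed to build peroxisomes, differed by -0.41 (SE 0.16) and Ccnh, cyclin H, by -0.34 (SE 0.14) over 3 probe sets.

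The smallest unadjusted p of all genes belonged to Srsf5, a splicing factor with 1 probe set. It ran from 9.64 to 11.03 with a median of 10.67 in haloperidol arrays and from 10.64 to 11.43 with a median of 11.11 in controls. All 10 haloperidol arrays were below the control mean and 5 below the lowest control. The difference was -0.52 (SE 0.15, p = 0.0013, 0.696-fold), and -0.30 (SE 0.12) with the cluster block. Lrpprc, which stabilises mitochondrial mRNAs, differed by -0.52 (SE 0.18), or -0.34 with the cluster block, with 6 haloperidol arrays below the lowest control. On the higher side Pprc1, a coactivator of mitochondrial biogenesis, ran from 5.999 to 7.10 and from 5.22 to 6.59 and differed by 0.57 (SE 0.18), or 0.36 (SE 0.18) with the cluster block. Nhsl1 ran from 6.87 to 8.38 and from 6.20 to 7.46 and differed by 0.47 (SE 0.16), or 0.43 (SE 0.13) with the cluster block. Il17d, a cytokine, ran from 5.50 to 7.64 and from 5.22 to 6.21, with 6 haloperidol arrays above the highest control, and differed by 0.60 (SE 0.20), or 0.33 (SE 0.12) with the cluster block and 0.45 without haloperidol 2. The only probe set of Il17d is of a kind able to bind other transcripts.

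Calls appeared in alternatives that took the clusters into account. Those clusters came from correlations over the same probe sets that were then tested. The adjusted p of these fits takes that grouping as given. With the cluster as a block limma called 1 of 12944 probe sets (0.00773%) and 0 genes. That probe set reads Eif3a, the scaffold subunit of a translation initiation factor, and differed by -0.91 with an adjusted p of 0.00031. It ran from 3.30 to 5.40 with a median of 4.82 in haloperidol arrays and from 4.13 to 6.11 with a median of 5.63 in controls. The gene's 3 other probe sets differed by -0.07, 0.20 and -0.07 in the same fit, so several probe sets of Eif3a did not share the shift. With arrayWeights alone 0 genes and 0 probe sets were called (0%). With weights and block together, chosen after seeing the data, 5 probe sets were called (0.0386%). They read Eif3a, Sppl2a (-0.61, in 1 of its 2 probe sets; the other was at -0.03), Penk, Camk4 and Zbtb22. The 4 genes called there were Penk, Camk4, Zbtb22 and Bckdha. Camk4, a kinase that phosphorylates CREB, ran from 5.47 to 6.38 with a median of 5.67 in haloperidol arrays and from 5.52 to 7.12 with a median of 6.01 in controls. Its difference was -0.42 (SE 0.18) and, with weights and block, -0.54 with an adjusted p of 0.029. Zbtb22, a zinc finger protein, and Bckdha, a subunit of branched-chain keto acid dehydrogenase, were at -0.47 and -0.37 there, but at -0.11 (SE 0.16) and -0.073 (SE 0.23) without weights or block.

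Clozapine, which binds D2 receptors more loosely than haloperidol, was compared with the same 10 controls, so the drugs' differences are not independent and are given side by side. Penk differed by 0.10 (SE 0.13) under clozapine against 0.33 under haloperidol. Egr1 differed by 0.24 against 0.30, Dbp by 0.69 against 0.45 and Per2 by 0.36 against 0.56. For Ralb the values were 0.20 and 0.42, for Poldip3 0.19 and 0.32, for Sppl2a -0.31 and -0.45, and for Hccs -0.50 and -0.69. Pde4b was at 0.086 under clozapine and -0.31 under haloperidol, and Sst at 0.034 and -0.31. The difference between the drugs was not tested here.

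Other cell classes gave small list medians. Of 10 astrocyte genes 8 were lower (median -0.12), with mean levels of 8.22 to 8.73 in haloperidol arrays and 8.53 to 8.87 in controls. That median was -0.047 with the cluster block. With the most abundant probe set of each gene it was -0.032, and 5 of 10 were higher. Of 8 oligodendrocyte genes 6 were lower (median -0.067), but 5 of 8 were higher with the cluster block (median 0.023). Of 9 microglial genes 5 were higher (median 0.003), but 1 of 9 was higher with the cluster block (median -0.059). Of 7 vascular genes 5 were lower (median -0.041). Thalamic and midbrain markers had a median of -0.070 over 6, cerebellar ones 0.012 over 5 (-0.14 without the 3 arrays in no cluster), and choroid plexus and ependymal ones 0.003 over 4, which turned to -0.022 after quantile normalization. Olfactory bulb markers were higher in 7 of 8 cases (median 0.099), but 1 of 8 was higher with the cluster block (median -0.093). No gene of these marker lists had an unadjusted p under 0.05, and their part in the gene differences above was not tested.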

How the data were processed

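Total RNA from 30 forebrains was measured on Affymetrix MOE430A arrays. The deposited values are log2 expression values for each probe set and array. Per the submitters' processing notes they come from GCRMA, which models background from probe sequence, normalizes the arrays and combines probes into probe sets. It compresses low signals. The sources used here do not give its version or the arrays normalized together. Array medians ran from 4.63 to 4.88.

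Of 22690 probe sets, 64 controls were left out and 12944 had a mean of at least 4 over 30 arrays. Symbols came from the platform annotation, updated through RefSeq: 20380 probe sets had 1 symbol, 691 several and 1555 none, and only those with 1 were named. The 11910 tested probe sets with 1 symbol gave 7576 genes. The test was limma's (version 3.58.1, R 4.3.3; lmFit and eBayes), two-sided, from 1 model of the 3 group means over 30 arrays, which leaves 27 residual degrees of freedom. P-values were adjusted by Benjamini-Hochberg over all features tested. The fit was run on simulated data with independent normal noise, which held no array clusters or outlying arrays, so it does not bear on those. Single values used 100000 permutations. The number of arrays and their spread limit the precision. The labels call each RNA sample an independent biological replicate. Replicate numbers were not taken as pairing the groups.

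The members and the 29 gene lists were chosen with earlier results of these data known. Named genes were the backed genes, up to 12 per direction and filled from genes with all probe sets on the same side; the 5 smallest p per direction; the 3 smallest p of each pathway list; any gene with probe sets at p under 0.05 in both directions (none); and a set of genes linked to D2 signalling. Eif3a, Camk4, Zbtb22, Bckdha and the further list members were named after their values were seen. Alternatives were other scalings and filters, RNA quality as covariate, array clusters, arrayWeights, 20 arrays alone, the most abundant probe set, a replicate block and arrays left out; weights together with the cluster block were added after seeing the data.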

Additional observations from a re-analysis of the deposited data

Results flagged for a closer look

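Among the 93 named genes, each in the 10 haloperidol and the 10 control arrays, 35 of 186 groups held an array whose gap to the next value was over 0.466 of the group's whole range (Dixon's criterion for 10 values). Chance puts about 1 in 20 groups past that limit, and the genes share arrays. Values in brackets are log2 expression of the gene in that array. Control 1 stood apart in 12 genes: it was the lowest of its group for Mknk2 (5.35), Aph1a (5.12), Shank3 (7.97), Mapt (7.39), Rgs4 (7.86), Akt1 (6.02) and Bckdha (4.27), and the highest for Pex3 (8.17), Pts (7.84), Rgs19 (6.98), Ndufb5 (11.16) and Nts (6.82). Haloperidol 2 stood apart in 11 genes: it was the lowest of its group for Krr1 (5.20), Ccnh (7.14), Arpp19 (8.74), Foxp1 (5.86), Rheb (9.96), Hmgcs1 (9.30) and Eif3a (6.09), and the highest for Jund (10.85), Grin2c (8.18), Ndufb8 (10.36) and Bckdha (7.23). Control 5 stood apart in 7 genes: it was the lowest of its group for Hccs (6.16), Maoa (5.53), Ptprm (6.57), Tac1 (8.87), Arrb2 (4.89) and Dhcr7 (5.83), and the highest for Tmem161a (6.61). Haloperidol 7 stood apart in 3 genes: it was the lowest of its group for Mapt (7.95), and the highest for Nhsl1 (8.38) and Pts (7.63). Control 6 stood apart in 1 gene: it was the lowest of its group for Jund (9.56). Haloperidol 9 stood apart in 1 gene: it was the lowest of its group for Pdyn (3.93).
Control 1, haloperidol 2 and haloperidol 7 are also the arrays that joined no cluster. The 3′ minus 5′ difference of the RNA quality probe sets was 4.09, 1.10 and 2.45 in them, against 0.47 in control 5. Control 4, an array of cluster C, was at 1.36, so haloperidol 2 lay within the range of clustered arrays. The part of the 3 arrays in no cluster in the gene differences was not tested beyond the fits without them.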

How the results depend on the processing

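limma called 0 genes and 0 probe sets under every alternative except those with the cluster block: 1 probe set with the block alone, and 4 genes and 5 probe sets with arrayWeights and block. Probe sets at an unadjusted p under 0.05 numbered 549 with the cluster block, 3094 with arrayWeights, 1651 with both, 510 without a filter, 1087 within cluster B and 540 with a replicate block, against 298, and 182 to 749 with single arrays left out. Genes backed higher and lower, 2 and 5, were 5 and 5 with RNA quality as covariate, 1 and 7 with the cluster block, 17 and 40 with arrayWeights and block, and 66 and 180 with arrayWeights. They were 4 and 0 under median centring, 7 and 2 after quantile normalization, 1 and 4 at a minimum mean of 6, 8 and 2 without a filter, and 3 and 2 with only 20 arrays. They were 6 and 13 with a replicate block, 0 and 5 within cluster A, 16 and 12 within cluster B, 5 and 6 without the 3 arrays in no cluster, and 2 to 6 and 0 to 22 with single arrays left out. Same-numbered arrays deviated from their group means with correlations of -0.31 to 0.80, of which 5 of 10 were over 0.1, so the number was not taken as a pairing, and 1 of 10 haloperidol arrays correlated best with its own number. Of 3150 recomputed differences of 93 named genes 91 had the opposite sign, in 33 genes, 4 passed the threshold where the value reported did not, and the others kept their sign and side; none of these sign changes was in a called value. Within cluster A the sign turned for Dbp (-0.16), Ptprm (0.28), Ebf1 (-0.15), Rasgrp2 (-0.12), Dusp6 (-0.061), Shank3 (-0.087), Grin2c (-0.14), Gsk3a (-0.014), Ebp (-0.12), Ndufb8 (-0.0028), Vamp1 (0.19), Nefm (0.034), Nefl (0.051), Mapt (-0.015) and Akt1 (0.10). Within cluster B the sign turned for Aph1a (-0.13), Serinc1 (0.048), Pts (0.036), Tac1 (0.0088), Arpp19 (0.018), Gabrg1 (0.054), Grin2c (-0.0072), Hmgcs1 (0.0074), Pgrmc1 (0.048), Nsf (0.042), Sypl (0.0028), Nefm (0.011), Nts (0.26), Ppp1r1b (0.013), Homer1 (0.067) and Gad1 (0.024). With arrayWeights and block the sign turned for Serinc1 (0.036), Ebf1 (-0.047), Pdyn (0.010), Grin2c (-0.054), Pgrmc1 (0.065), Nts (0.12), Ppp1r1b (0.014), Gad1 (0.042) and Akt1 (0.030). With arrayWeights the sign turned for Drd2 (-0.10), Pdyn (0.045), Grin2c (-0.071), Hmgcs1 (0.12), Ebp (-0.13) and Bdnf (0.15). With RNA quality as covariate the sign turned for Ptprm (7.4e-05). With the cluster block the sign turned for Ptprm (0.048), Ebf1 (-0.025), Dusp6 (-0.022), Grin2c (-0.044), Pgrmc1 (0.045), Nefl (0.019), Nts (0.041), Ppp1r1b (0.011) and Akt1 (0.092). After quantile normalization the sign turned for Ptprm (0.0069), Ppp1r1b (0.018) and Akt1 (0.0084). Without the 3 arrays in no cluster the sign turned for Shank3 (-0.019), Grin2c (-0.032), Ebp (-0.079), Pgrmc1 (0.022), Akt1 (0.0075) and Bdnf (0.050). Under median centring the sign turned for Ppp1r1b (0.0021). With single arrays left out the sign turned for Akt1 (-0.26 to 0.16), Bckdha (-0.26 to 0.071), Mapt (-0.00072 to 0.36), Pdyn (-0.076 to 0.029), Pgrmc1 (-0.13 to 0.0044), Ppp1r1b (-0.12 to 0.059) and Ptprm (-0.14 to 0.020). The causes of these sign changes were not tested. The most abundant probe set of a gene, the other filters, the replicate block and the 20 arrays alone turned no sign.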
